A study of Mus musculus with 9 samples.

Results

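The comparison set the healing fracture site of mice that received a nonsteroidal anti-inflammatory drug (NSAID) during their active time against the intact tibia. It used 6 of the 9 arrays of the study: the 3 titled Tibia Hematoma Active and the 3 titled Tibia Hematoma Control, taken by title from the table of normalized values that is keyed by gene symbol. All 24367 rows of that table were compared, and a symbol with several rows (the table holds 22354 symbols) was read from the row whose average across the 9 arrays was greatest. Active mice were females labelled 2 months old with a fractured right tibia, given the NSAID, named in the methods as carprofen, for 3 days after surgery at the active time of the day, and the fracture site with its callus and hematoma was taken on day 3. Control mice were females of the same labelled age with no fracture and no drug, although their titles also carry the word hematoma, and the tissue taken was tibia bone. A group that received the same drug at the resting time supplied the 3 arrays that complete the fit. The methods name the strain C57BL/6J, at an age above the labelled one, for the mice of the first experiment. They give no separate strain or age for the mice of the arrays. No array came from a fractured mouse without the NSAID, so the fracture, the surgery and the drug cannot be told apart in any value below. The part of the tibia taken from the controls was not stated, so a difference in the part taken cannot be told apart from these either. The methods describe 9 mice in 3 groups but also speak of RNA pools, so the p-values measure the spread between arrays.

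On the third day a fracture lies between its inflammatory and its reparative phase. A hematoma fills the gap, neutrophils and monocytes enter it, macrophages clear debris, and mesenchymal cells from the periosteum, the marrow stroma and the adjoining muscle begin to lay down a provisional matrix before cartilage and bone appear. An intact tibial shaft holds red marrow, in which red cells, platelets, granulocytes and B cells are made. Carprofen inhibits cyclooxygenases, the enzymes that open prostaglandin synthesis. In bulk tissue of this kind, fewer cells of a type and less RNA per cell cannot be told apart.

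The labelled tissue was checked with markers of bone and muscle in all 9 arrays. Col1a1, the main chain of bone collagen, had values of 12.07, 11.77 and 12.43 in the active arrays, against 11.51, 11.44 and 11.48 in the control arrays, and all arrays were high. Ibsp, Dmp1 and Sost were read in each array as well, but no threshold for detection was set. Bglap (osteocalcin) lay between 5.44 and 6.37, near or below the median of the arrays. Acta1, Ckm, Myh4 and Mylpf, which mark mature skeletal muscle, were high in both groups, with Myh4 at 12.28, 11.96 and 12.03 in the active arrays, against 11.95, 11.89 and 11.65 in the control arrays, so each sample carried muscle RNA, the controls included. Arrays of a group correlated more closely with each other than with those of the other group over all rows. Between the active arrays and those of the resting-time group no row differed at an adjusted p under 0.05 by limma, and 1489 rows had an unadjusted p under 0.05. Active replicate 1 had a higher mean level than active replicates 2 and 3 in the erythroid, platelet, neutrophil, B lineage, T and NK, and cell cycle lists. Medians without it are given where those lists are described. It was not the highest in the mast, basophil and eosinophil list (6.12, beside 6.25 and 6.24) or the progenitor list (7.13, beside 7.08 and 7.19).

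Values are normalized log2 intensities, so a difference of 1 is 2-fold. A row was called where the moderated test of limma over all 9 arrays gave a Benjamini-Hochberg adjusted p under 0.05. Active arrays were higher than control arrays in 2873 rows (11.8%) and lower in 2953 rows (12.1%), and these shares are the background against which the counts below are read. Among the 22354 genes, 2776 were called higher and 2772 lower, and in 2727 and 2755 of them the 3 active arrays did not overlap the 3 control arrays. The called differences reached at least 2-fold in 736 genes that were higher and 877 that were lower. At least 8-fold differences were found in 20 genes that were higher and 52 that were lower. The median difference over all rows was 0.02 on the log2 scale.

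The genes with the largest increases were of muscle regeneration, of fibrous matrix and of the early inflammatory response, and the genes with the largest decreases were mostly of red cell formation and of B cells. The 48 gene lists used to describe the comparison held 1280 symbols with a row. Their medians ran between -2.74 for the erythroid list and 1.98 for the muscle regeneration list.

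Genes of muscle regeneration were higher at the fracture site, and they headed the whole comparison. When muscle is injured, quiescent satellite cells are activated, express myogenic transcription factors, fuse into new fibres and pass through an embryonic phase of contractile proteins and acetylcholine receptors. Of the 23 members, 21 were called higher and 0 lower, with a median difference of 1.98, beside 0.02 over all rows. Tmem8c, now called myomaker, the membrane protein that fuses myoblasts, had the largest increase of any gene named by the rule. Its values were 9.97, 9.66 and 9.56 in the active arrays, against 5.11, 4.84 and 5.35 in the control arrays. The groups lay far apart, with a difference of 4.63 (SE 0.19, adjusted p = 6.84e-07), which is 24.7-fold.

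The myogenic transcription factors differed among themselves. Myog, which drives terminal differentiation, had 10.97, 9.66 and 9.95 in the active arrays, against 6.96, 6.47 and 6.67 in the control arrays. All active arrays were above all control arrays, replicate 1 was the highest of its group, and the difference was 3.50 (SE 0.27, adjusted p = 1.14e-05). Myf6 was higher by 2.32 (SE 0.21, adjusted p = 2.6e-05) and Myod1 by 1.58 (SE 0.24, adjusted p = 0.000764). Myf5 and Pax7, the factors of activated and quiescent satellite cells, were not called, with differences of 0.34 and 0.17. The adhesion molecules of satellite cells and young fibres, Itga7 (2.24), Ncam1 (1.04) and Cdh15 (0.72), were higher, as was the intermediate filament gene Des (1.56).

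All 12 members of the embryonic contractile and receptor role were called higher. Chrna1, the acetylcholine-binding subunit of the muscle receptor, had 9.65, 9.20 and 9.09 in the active arrays, against 5.82, 4.64 and 5.55 in the control arrays. No control array reached the lowest active array, and the difference was 3.98 (SE 0.27, adjusted p = 6.41e-06). Chrng, the fetal subunit that innervation normally replaces with the epsilon subunit, had 8.66, 7.62 and 7.73 in the active arrays, against 6.27, 5.79 and 5.79 in the control arrays. It was higher by 2.05 (SE 0.26, adjusted p = 0.000206), and the adult subunit Chrne was higher by 0.76. The delta and beta subunits and the clustering proteins of the endplate, Chrnd (2.22), Chrnb1 (2.05), Musk (2.09) and Rapsn (1.19), followed the same direction. Among embryonic contractile proteins, Myh3, the embryonic myosin heavy chain, had 9.30, 8.18 and 8.80 in the active arrays, against 4.93, 4.85 and 5.39 in the control arrays. Its groups did not overlap, with a difference of 3.70 (SE 0.26, adjusted p = 7.63e-06). The neonatal myosin Myh8 was higher by 1.91, and Tnnt2 and Actc1, the cardiac troponin T and actin that fetal skeletal muscle shares, by 3.06 and 1.98.

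The promoter windows of the 2 receptor genes are shown because both subunits are switched on together in uninnervated muscle, and because each window holds 2 copies of CAGCTG, a form of the E-box that myogenic factors recognise. The windows are from RefSeq on GRCm38.p6, cover the 300 bases around the annotated start and are written 5′ to 3′ on the strand of the gene, with CAGCTG in capitals.
Chrna1 promoter, chr2:73580289-73580588, - strand: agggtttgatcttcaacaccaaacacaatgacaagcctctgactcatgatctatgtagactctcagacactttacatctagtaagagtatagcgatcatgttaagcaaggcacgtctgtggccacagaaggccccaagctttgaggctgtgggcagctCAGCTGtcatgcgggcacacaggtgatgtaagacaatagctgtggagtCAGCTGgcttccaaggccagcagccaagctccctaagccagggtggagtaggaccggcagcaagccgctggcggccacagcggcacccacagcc
Chrng promoter, chr1:87205561-87205860, + strand: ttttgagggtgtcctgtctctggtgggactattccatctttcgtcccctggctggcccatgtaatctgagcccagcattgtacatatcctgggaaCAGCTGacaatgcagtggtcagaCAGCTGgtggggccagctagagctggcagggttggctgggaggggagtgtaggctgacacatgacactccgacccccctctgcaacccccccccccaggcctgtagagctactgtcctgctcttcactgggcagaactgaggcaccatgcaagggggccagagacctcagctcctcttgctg
The motif reads the same on both strands. It was present in 6 of the 15 windows found for the 23 members of the muscle regeneration list (40%). For adult muscle it was in 18 of 32 windows (56.2%), and for the repair matrix list in 9 of 30 (30%). Of all genes with a window, 4944 of 27025 held it (18.3%). These are matches of letters and were not tested for binding.

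Adult muscle genes were also higher, by smaller amounts. Of 42 members, 28 were called higher and none lower, with a median of 0.68. The slow or shared isoforms led the contractile role, with Tnnc1 (2.79), Tnni1 (2.13), Tnnt1 (1.98) and Actn2 (1.77). The slow myosin Myh7 was not called at 0.14, and of the fast myosins Myh1 and Myh2 were called at 1.06 and 1.08 but Myh4 was not (0.26). Sln, a small inhibitor of the calcium pump of the sarcoplasmic reticulum, had 9.10, 9.26 and 7.85 in the active arrays, against 4.95, 4.27 and 4.27 in the control arrays. The third active array was more than 1 unit below the other active arrays, yet it remained above every control array, and the difference was 4.24 (SE 0.33, adjusted p = 1.07e-05). The mean level of the adult muscle list was 10.32, 10.32 and 10.47 in the active arrays, against 9.73, 9.37 and 9.35 in the control arrays. The list as a whole was thus higher in each active array than in any control array. The part of that shift in the regeneration genes was not tested. Acta1 and Ckm, abundant products of mature fibres, had differences of 0.23 and 0.40 and were not called, although each passed under 1 alternative.

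Several muscle genes outside the lists were chosen after their values were seen. Ankrd1, a stretch-responsive nuclear and titin-binding protein, was higher by 3.04 (SE 0.28, adjusted p = 3.18e-05), and Csrp3 and Ankrd2 by 1.88 and 1.89. Sarcoglycans, the membrane partners of dystrophin, were called higher at Sgca (1.65), Sgcb (1.58), Sgcd (1.07) and Sgce (0.69), and Sgcz was not called (-0.01). The small heat shock proteins, chaperones of the Z-disc and the lens, gave 8 called higher of 10, with a median of 1.54. The largest was Hspb7 (2.09), followed by Hspb8 (1.77), Hspb1 (1.66), Hspb2 (1.64) and Cryab (1.56), whereas Hspb9 and Cryaa had differences of -0.07 and -0.09. Both muscle-specific ubiquitin ligases of atrophy were higher, Fbxo32 by 1.19 and Trim63 by 1.10. Foxo3, a factor that activates them, was lower (-1.27) and Foxo1 was not called (-0.20).

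Fibrous repair matrix was the second large group that was higher at the fracture site. Fibroblasts of a wound or early callus secrete fibronectin, tenascins, periostin, thrombospondins and type III collagen, and crosslink them with lysyl oxidases. Of 43 members of the repair matrix list, 35 were called higher and 1 lower, with a median of 1.18. Postn (periostin), a matricellular protein of periosteum and scar, had 12.43, 12.08 and 11.96 in the active arrays, against 8.97, 9.44 and 8.68 in the control arrays. Mfap5, a microfibril protein, had 10.10, 10.16 and 9.91 in the active arrays, against 6.66, 6.67 and 6.30 in the control arrays. In both genes the groups were separate, with differences of 3.13 (SE 0.21, adjusted p = 6.36e-06) and 3.51 (SE 0.15, adjusted p = 7.98e-07). Further glycoproteins with large differences were Fbln2 (2.97), Cthrc1 (2.79), Thbs2 (2.55) and Fbn1 (2.41). Tnc and Fn1, provisional matrix proteins of wounds, were higher by 1.14 and 1.05. The list's only called decrease was Emilin2 (-0.47), a call lost without active replicate 1 or 2 or control replicate 1 or 3, while Thbs1 (0.02), Fbln5 and Fbln7 were not called.

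Proteoglycans followed the glycoproteins, with 12 of 15 called higher. The small leucine-rich proteoglycans Aspn (2.72), Lum (2.04), Ogn (2.00) and Fmod (1.36) and the large hyaluronan-binding Vcan (2.55) were among them. Has2, a hyaluronan synthase, and Tnfaip6, which modifies hyaluronan in inflammation, were higher by 1.72 and 2.13. Has1 and the hyaluronan receptor Cd44 were not called, at 0.28 and 0.03.

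Of 29 collagen chains, 17 were called higher and none lower. Col3a1, the chain of wound and fetal collagen, had 10.61, 10.63 and 11.10 in the active arrays, against 7.93, 8.27 and 7.79 in the control arrays. The active arrays were all above the control arrays, with a difference of 2.78 (SE 0.17, adjusted p = 3.39e-06). The fibril-associated and regulatory chains Col12a1 (2.11), Col14a1 (1.89), Col5a2 (1.85) and Col5a1 (1.62) and the 3 main chains of type VI collagen, Col6a3 (2.09), Col6a2 (1.46) and Col6a1 (1.37), were higher as well. Of the chains of type I collagen, Col1a2 was called (0.78 (SE 0.25, adjusted p = 0.043)). Col1a1 was not, at 0.61 (SE 0.22, adjusted p = 0.0644), although its active arrays were all above its control arrays. The calls of both chains were unsteady, since Col1a2 lost its call without any one of 5 arrays, in the probe set table and under the methods' t-test, and Col1a1 passed in 4 of the 17 alternative fits, among them that of the 6 arrays (0.61) and that without active replicate 2 (0.77). Basement membrane chains split, with Col4a1 (0.93) and Col4a2 (0.85) called and Col4a3 to Col4a6 not called.

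The enzymes that modify and crosslink collagen were called higher in 19 of 24 cases, with a median of 1.27. Lox, a lysyl oxidase, had 9.40, 9.45 and 9.16 in the active arrays, against 6.54, 6.81 and 5.95 in the control arrays. Its difference was 2.90 (SE 0.19, adjusted p = 5.73e-06), with separate groups, and Loxl2, Loxl3 and Loxl1 were higher by 2.03, 1.66 and 1.32. Prolyl hydroxylase subunits P4ha3 (2.51), P4ha1 (1.5) and P4ha2 (1.37), the lysyl hydroxylase Plod2 (1.58) and the collagen chaperone Serpinh1 (1.74) were called too. Among the FK506-binding proteins, prolyl isomerases chosen after their values were seen, 8 of 14 were called higher and none lower. The called members included those of the endoplasmic reticulum, Fkbp11 (2.31), Fkbp10 (1.87), Fkbp9 (1.67), Fkbp7 (1.62) and Fkbp14 (1.35), whereas Fkbp5, Fkbp4 and Fkbp8 were not called. In the secretory pathway list 16 of 30 members were higher, led by the retrieval receptor Kdelr3 (2.20), the chaperone Rcn1 (1.93) and the factor Creb3l1 (1.71). Hspa5, Hsp90b1 and Calr, the abundant chaperones of the unfolded protein response, were not called (Hspa5 (0.16), Hsp90b1 (0.08) and Calr (0.07)), and Ddit3 was lower (-0.50), a call lost without active replicate 1 or control replicate 2 or 3.

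Proteases and their inhibitors were more often higher than lower. Of 11 inhibitors and genes of the plasminogen system 6 were higher and 2 lower, Serpinb2 (-1.29) and Timp4 (-0.63). Timp1, an inhibitor of matrix metalloproteases, had 9.51, 9.49 and 9.33 in the active arrays, against 6.05, 6.25 and 5.99 in the control arrays. It separated the groups, with a difference of 3.35 (SE 0.11, adjusted p = 3.35e-07). The plasminogen activators Plat and Plau were higher by 1.83 and 1.03, whereas the receptor Plaur was not called (-0.21). Of 24 metalloproteases, 13 were called higher, among them the stromal enzymes Adamts4 (2.39), Mmp3 (2.28), Mmp2 (2.13) and Mmp14 (1.80). The 2 that were lower, Mmp8 (-1.68) and Mmp9 (-0.92), are stored in neutrophil granules. Mmp13, the collagenase of hypertrophic cartilage and osteoblasts, had a difference of 0.17 and was not called.

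Integrin and laminin subunits divided by the cells known to carry them. Of 31 subunits 16 were called higher, led by Itga7 (2.24), Lamb1 (2.06), Lama4 (1.89), Itga11 (1.51) and Itga5 (1.43). The 5 that were lower were Itga4 (-1.87), Itgb3 (-1.72), Itgb7 (-1.37), Itga2 (-0.89) and Itgb2 (-0.83), subunits of white cells and platelets. The cytoskeletal list had 15 of 30 called higher, with the smooth muscle and myofibroblast genes Acta2 (2.07 (SE 0.18, adjusted p = 2.04e-05)) and Tagln (1.97 (SE 0.20, adjusted p = 5.27e-05)) in front. Zyx was lower (-0.66).

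In the prostanoid pathway, which the drug targets, the inducible and the constitutive cyclooxygenase differed in opposite directions. Ptgs2, the inducible enzyme (COX-2), had 8.66, 8.49 and 7.58 in the active arrays, against 5.01, 4.64 and 5.44 in the control arrays. The lowest active array was above the highest control array, and the difference was 3.21 (SE 0.31, adjusted p = 3.61e-05), or 9.28-fold. Ptgs1, the constitutive enzyme (COX-1) that platelets carry, had 7.05, 6.65 and 6.95 in the active arrays, against 8.08, 8.08 and 8.09 in the control arrays. Its active arrays were all below its control arrays, at -1.20 (SE 0.16, adjusted p = 0.000353). Tbxas1, the thromboxane synthase, was lower as well (-1.15 (SE 0.22, adjusted p = 0.00272)). The prostaglandin E synthases Ptges, Ptges2 and Ptges3, the prostacyclin synthase Ptgis and the phospholipase Pla2g4a were not called, with differences between 0.17 and 0.31. Of the receptors, Ptger2, Ptger3, Ptgir and Tbxa2r were lower (-0.40, -0.65, -0.57 and -0.39), and Ptger4 was not called (-0.05). Ptgfrn, a regulator that associates with the prostaglandin F receptor, was higher by 2.26, while the receptor Ptgfr itself had a difference of 0.02.

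The leukotriene list was lower in 7 of 11 members and higher in 1. Alox5, which makes leukotrienes, its partner Alox5ap and Lta4h were lower as well, at Alox5 (-1.09), Alox5ap (-0.50) and Lta4h (-1.07). The platelet and eosinophil lipoxygenases Alox12 and Alox15 had differences of -2.73 and -1.59. The one member called higher was the cysteinyl leukotriene receptor Cysltr1 (0.64), a call lost without active replicate 2 or control replicate 1, and Cysltr2 was lower (-1.52).

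Of 15 CC chemokine ligands 5 were called higher and 1 lower, and the receptors were more often lower. Ccl8 had 9.03, 10.26 and 9.57 in the active arrays, against 6.95, 5.72 and 5.81 in the control arrays, and Ccl2 had 8.19, 7.96 and 8.55 in the active arrays, against 6.34, 6.14 and 5.75 in the control arrays. Both separated the groups, with differences of 3.46 (SE 0.42, adjusted p = 0.00016) and 2.15 (SE 0.28, adjusted p = 0.000269). The related ligands Ccl7 and Ccl12 were higher by 1.73 and 1.41. Ccr2, the receptor for Ccl2, had a difference of 0.01 and was not called. The neutrophil attractants Cxcl1, Cxcl2 and Cxcl5 were not called (Cxcl1 (0.15), Cxcl2 (0.21) and Cxcl5 (0.69)), but Cxcl3 was higher (0.83). Of 15 receptors 9 were lower and 1 higher, the largest decreases being Ccr3 (-2.32), Cxcr2 (-1.27) and Cxcr4 (-1.16). Ccl5 (-1.17), the platelet chemokine Ppbp (-3.02) and the marrow retention factor Cxcl12 (-0.87) were lower among the ligands.

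Cytokine ligands changed little in number, with 4 of 27 higher and 3 lower. Il6, which signals early after injury, was higher by 0.85 (SE 0.16, adjusted p = 0.00289), and Il33 (1.37), Il11 (0.62) and Csf1 (0.57) were higher too. Il1a (-1.21) and the receptor antagonist Il1rn (-0.76) were lower. Il1b and Tnf were not called, at -0.54 and -0.29, and neither were the type 2 cytokines Il4, Il13 and Il10 (Il4 (-0.10), Il13 (-0.14) and Il10 (0.06)). Of 30 receptors 5 were called higher and 10 lower. Il1r1 (1.63), Osmr (1.56), Il13ra1 (1.52), Tnfrsf12a (1.5) and Il4ra (0.95) were higher. The lymphocyte and granulocyte receptors Il2rb (-2.08), Il7r (-1.50) and Csf3r (-1.32) were lower.

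Acute phase and stress genes stood among the largest increases. Serpina3n, an inhibitor of serine proteases, had 10.13, 10.52 and 10.34 in the active arrays, against 6.49, 7.42 and 6.51 in the control arrays. All active arrays were above all control arrays, with a difference of 3.52 (SE 0.27, adjusted p = 1.07e-05). Orm2, an orosomucoid, was higher by 2.96 (SE 0.55, adjusted p = 0.0025), and Saa3, chosen after its value was seen, by 2.61. The metallothioneins Mt2 and Mt1 were higher by 2.22 and 1.33. In the list of glucocorticoid targets these and Cdkn1a (1.89), Sgk1 (1.14) and Ddit4 (0.81) were called, but the classical targets Tsc22d3, Fkbp5, Per1 and Zbtb16 were not, with differences of -0.04, 0.21, 0.08 and -0.16.

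Macrophage genes were more often higher than lower. Of 51 members 19 were called higher and 7 lower. Folr2, a folate receptor of tissue macrophages, had 9.28, 9.42 and 9.45 in the active arrays, against 6.13, 6.68 and 6.23 in the control arrays. It was higher by 3.03 (SE 0.23, adjusted p = 1.01e-05), with no overlap. Arg1, an arginase of repair macrophages, had 8.90, 7.67 and 9.19 in the active arrays, against 6.35, 6.23 and 6.0 in the control arrays. Its difference was 2.39 (SE 0.55, adjusted p = 0.00876). Further genes of repair and lipid handling, Gpnmb (1.77), Trem2 (1.61), Fabp5 (1.55) and Msr1 (1.42), were higher. So were genes of monocytes and macrophages in general, Ms4a7 (2.16), Fcgr1 (1.37), Cd14 (1.14), Emr1 (0.80) and Cd68 (0.68). Mrc1 and Retnla were not called (Mrc1 (0.65) and Retnla (0.42)), and Chi3l3 was lower (-1.61). Of 14 genes of marrow-resident and erythroblast island macrophages 3 were higher, the C1q chains C1qb (0.95), C1qa (0.84) and C1qc (0.59), and 4 lower, namely Vcam1 (-1.41), Spic (-1.11) and Cd5l (-0.92) and Epor (-2.60), which erythroblasts also express, with a median of 0.03. Ly6c2, a marker of inflammatory monocytes, was lower (-1.04). In the MS4A family, taken whole after its values were seen, 6 of 18 members were higher and 4 lower. Ms4a6d, Ms4a14 and Ms4a4a, macrophage members, were higher by 2.57, 2.41 and 1.67, and Ms4a1, the B cell antigen CD20, was lower (-2.38).

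Complement genes were more often higher than lower, with 10 of 23 members called higher and 2 lower, and 6 higher without active replicate 3 or control replicate 1. C3ar1, the receptor of the C3a fragment, led (2.58 (SE 0.20, adjusted p = 1.04e-05)), followed by Cfb (1.42), C1qb (0.95), Serping1 (0.94) and C1qa (0.84), whereas C3 itself was not called (-0.26). Lysosomal genes were higher in 8 of 23 cases, with Lgmn (1.45) and Ctsl (1.20), and in 5 without active replicate 3 or control replicate 3. Interferon-induced genes went both ways (6 higher and 8 lower of 27), with Rsad2 (-1.91) and Isg15 (-0.77) lower and Mx2 (0.71) and Gbp2 (0.55) higher. Only 1 to 3 interferon genes were higher without active replicate 2 or 3 or control replicate 1 or 3. Antigen presentation was lower in 14 of 16 members and higher in none. Cd74, the invariant chain, and Ciita, the master regulator of class II genes, were lower, with differences of -0.99 and -0.83.

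Growth factor pathways were mostly higher where they changed. Of 46 members of the BMP and TGF-beta list 20 were higher. Tgfb3 and Tgfb2 were higher by 1.48 (SE 0.20, adjusted p = 0.000321) and 1.18 (SE 0.19, adjusted p = 0.00109), while Tgfb1, the isoform of platelets and white cells, was lower, at -0.65 (SE 0.14, adjusted p = 0.00721). Bmp5 was higher (1.52) and Bmp6 and Bmp7 lower (-0.68 and -0.34), whereas Bmp2 and Bmp4, the best known inducers of bone, were not called (Bmp2 (0.18) and Bmp4 (-0.33)). The receptors Acvr1 (1.31), Acvr2a (1.12), Bmpr1b (1.10), Bmpr2 (0.95) and Bmpr1a (0.82) were higher. Inhba, the activin A subunit, and its antagonists Fst and Fstl3 were all higher (Inhba (1.12), Fst (0.88) and Fstl3 (0.49)), as was the BMP antagonist Nog (0.50).

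In the Wnt list only Wnt5a of 21 ligands was called (0.77 (SE 0.15, adjusted p = 0.00322)), and the change lay in receptors and secreted inhibitors, of which 14 of 25 were higher. The inhibitors Sfrp2 (1.67), Sfrp1 (1.35), Sfrp4 (0.98) and Dkk2 (0.95) and the receptors Ror1 (1.20), Fzd1 (0.83) and Fzd8 (0.79) were among them, and Dkk1 was lower (-0.62). Axin2, a general readout of canonical signalling, was not called (0.20), and Lef1, which immature lymphocytes also express, was lower (-1.53). The Wnt list had 2 lower calls. Only 1 remained without any one active replicate, without control replicate 1 or 3, or in the probe set table. Fgf7 and the receptors Fgfr4 and Fgfr1 were higher (Fgf7 (0.71), Fgfr4 (1.18) and Fgfr1 (0.74)) while Fgf2 and Fgf18 were not called (Fgf2 (0.28) and Fgf18 (0.27)). Of the insulin-like growth factor system, Igfbp3 (1.51), Igfbp7 (1.20), Igf2r (1.14), Igf1 (0.88) and Igf2 (0.53) were higher. Platelet-derived growth factor receptors of mesenchymal cells, Pdgfra and Pdgfrb, were higher by 1.52 (SE 0.17, adjusted p = 9.96e-05) and 0.92 (SE 0.21, adjusted p = 0.00886), and the matricellular Cyr61 by 1.95 (SE 0.23, adjusted p = 0.000151). Notch members Jag1 and Hey1 were higher (1.36 and 1.17).

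Transcription factors of limb mesenchyme, tendon and fibroblasts were called higher in 17 of 29 cases and lower in none. Meox2, a factor of limb muscle and mesenchyme, had 7.54, 7.92 and 7.58 in the active arrays, against 5.55, 5.52 and 5.73 in the control arrays. The groups did not overlap, and the difference was 2.08 (SE 0.13, adjusted p = 3.57e-06). The factors Prrx1 (1.61), Twist1 (1.54), Scx (1.36) and Osr2 (1.10) were also higher. Of the Hox genes Hoxc10 (0.97), Hoxc8 (0.50) and Hoxd10 (0.49) were called and Hoxa11 (0.42), Hoxa10 (0.27), Hoxa9 (0.20) and Hoxd9 (-0.04) were not.

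Osteoblast genes differed much less than fibroblast genes, with a list median of 0.43, beside 0.02 over all rows. Of 25 members 3 were called, all higher, which is a share close to the background of 11.8% (6 passed in the fit of the 6 arrays). The 3 were Ibsp, a mineral-binding sialoprotein, with 11.45, 11.76 and 11.93 in the active arrays, against 10.14, 10.88 and 10.44 in the control arrays, and Ifitm5 and Cgref1 (Ifitm5 (1.33) and Cgref1 (1.78)). Ibsp differed by 1.23 (SE 0.27, adjusted p = 0.00644), and its groups were separate. Runx2 and Sp7, the factors that commit cells to bone, were not called, at 0.27 (SE 0.19, adjusted p = 0.36) and 0.84 (SE 0.28, adjusted p = 0.0517). For Sp7 the values were 9.04, 9.33 and 9.37 in the active arrays, against 8.24, 8.59 and 8.39 in the control arrays, all active arrays being higher, and the gene passed in 6 of the 17 alternative fits, that of the 6 arrays alone among them. Of the osteocyte genes Sost, an inhibitor of bone formation, was lower (-0.76 (SE 0.17, adjusted p = 0.00844)), Dmp1 was not called (0.02), and Pdpn, which osteocytes share with macrophages and stromal cells, was higher (2.73 (SE 0.19, adjusted p = 6.05e-06)).

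Cartilage genes were more often lower than higher in the active arrays. Sox9, the chondrocyte master factor, had 7.25, 7.44 and 6.95 in the active arrays, against 6.74, 6.68 and 6.95 in the control arrays. Its difference of 0.42 (SE 0.15, adjusted p = 0.0714) did not pass the test, but it passed without active replicate 3 (0.55) and with the lowest 40% of rows dropped. Of 29 cartilage members 3 were higher and 7 lower, and 1 was higher without active replicate 2, control replicate 1 or control replicate 3. Col2a1, the collagen of cartilage, had 7.90, 7.37 and 7.34 in the active arrays, against 8.61, 8.61 and 9.0 in the control arrays. Col10a1, the collagen of hypertrophic cartilage, had 6.08, 5.83 and 5.54 in the active arrays, against 7.50, 7.02 and 8.02 in the control arrays. Both were lower, by differences of -1.20 (SE 0.21, adjusted p = 0.00164) and -1.70 (SE 0.29, adjusted p = 0.00164). The largest decreases of the list were Cytl1 (-3.21), Lect1 (-2.63) and Chad (-2.11), and Mia, a cartilage protein named among the 30 largest decreases, had a difference of -3.51 (SE 0.40, adjusted p = 0.000114). Acan, Comp and Matn1 were not called (Acan (0.24), Comp (-0.03) and Matn1 (-0.09)). Which cartilage the control segments held was not measured.

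Most osteoclast genes were not called. Of 11 differentiation genes 3 were higher, Mitf, Tnfrsf11a (RANK) and Csf1 (Mitf (1.02), Tnfrsf11a (0.74) and Csf1 (0.57)), and 1 lower, Oscar (-0.57). Of 10 resorption genes 4 were lower and none higher. They were Acp5 (-1.02), Mmp9 and Itgb3 (Mmp9 (-0.92) and Itgb3 (-1.72)), which neutrophils and platelets also carry, and Car2, while Ctsk was not called (-0.13). Car2 had the list's largest decrease (-4.20 (SE 0.40, adjusted p = 3.41e-05)), but red cells also carry this enzyme and its fall stood beside that of Car1. Tnfsf11 and Tnfrsf11b, RANK ligand and its decoy receptor, were not called (Tnfsf11 (0.26) and Tnfrsf11b (-0.05)).

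Genes of red cell formation were lower by more than those of any other list. In marrow, erythroblasts switch on globins, the heme pathway and the membrane skeleton under Gata1, Tal1 and Klf1. Of 38 members 37 were called lower and none higher, with a median of -2.74. The exception was Hbb-bh1, an embryonic globin (-0.17). Kel, a blood group glycoprotein, had 7.48, 6.04 and 6.0 in the active arrays, against 10.73, 11.31 and 10.84 in the control arrays. Alas2, which opens heme synthesis in red cells, had 7.66, 6.10 and 6.34 in the active arrays, against 10.63, 10.89 and 10.57 in the control arrays. Both were separate between the groups, with differences of -4.46 (SE 0.35, adjusted p = 1.14e-05) and -4.00 (SE 0.33, adjusted p = 1.56e-05), which are 22-fold and 16-fold lower. Active replicate 1 was the highest active array in both genes.

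The membrane genes Rhag (-4.42), Ermap (-4.16), Slc4a1 (-3.90) and Epb4.2 (-3.82), the carbonic anhydrase Car1 (-4.28) and the factors Trim10 (-4.08), Klf1 (-3.50), Gfi1b (-2.98) and Gata1 (-1.82) gave the same direction. Globin rows were lower by less, with differences of -1.41 for Hba-a1 and -1.34 for Hbb-b1, and since paralogous globins share nearly the same sequence their rows cannot be assigned with certainty. Across the list the mean level was 7.76, 7.08 and 7.15 in the active arrays, against 9.94, 10.26 and 10.03 in the control arrays. Active replicate 1 was the highest active array and still below every control array, and without it the median became -2.92 with 37 members called lower.

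Windows of Kel and Alas2 are shown because these genes fell the most among membrane and heme genes with a RefSeq window, and each holds 1 AGATAA, the core letters that GATA factors recognise, on one or the other strand. They are again written on the gene's strand from GRCm38.p6, with AGATAA or its reverse complement TTATCT in capitals.
Kel promoter, chr6:41704276-41704575, - strand: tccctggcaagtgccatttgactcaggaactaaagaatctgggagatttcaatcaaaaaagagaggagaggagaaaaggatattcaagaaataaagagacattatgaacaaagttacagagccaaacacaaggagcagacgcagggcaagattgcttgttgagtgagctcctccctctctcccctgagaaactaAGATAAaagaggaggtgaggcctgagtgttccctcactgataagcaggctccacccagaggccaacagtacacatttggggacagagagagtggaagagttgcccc
Alas2 promoter, chrX:150547167-150547466, + strand: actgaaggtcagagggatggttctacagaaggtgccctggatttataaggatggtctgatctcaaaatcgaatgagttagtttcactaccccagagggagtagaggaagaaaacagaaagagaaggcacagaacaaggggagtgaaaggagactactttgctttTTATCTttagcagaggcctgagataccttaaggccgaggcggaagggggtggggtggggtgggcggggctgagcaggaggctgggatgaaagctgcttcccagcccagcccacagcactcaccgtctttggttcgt
The letters were found in 8 of the 25 windows matched to the 38 erythroid members (32%), in 5 of 15 for megakaryocytes (33.3%), in 4 of 27 for neutrophils (14.8%) and in 3432 of 27025 genes with a window (12.7%). No binding was measured.

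Other blood lineages of the marrow were lower too. For megakaryocytes and platelets 15 of 19 members were lower and none higher (median -1.72, or -1.84 without active replicate 1), with Clec1b (-3.12), Ppbp (-3.02), Gp6 (-2.49) and Itga2b (-2.35). All neutrophil precursor and secondary granule genes were lower, and 28 of 30 over the whole neutrophil list (median -1.27, and -1.27 without active replicate 1). Mpo, the myeloperoxidase of primary granules, had 10.71, 9.37 and 10.18 in the active arrays, against 11.85, 11.79 and 12.19 in the control arrays. S100a8, an alarmin of mature neutrophils, had 12.06, 12.28 and 12.15 in the active arrays, against 12.68, 12.59 and 12.75 in the control arrays. Their differences were -1.86 (SE 0.27, adjusted p = 0.000527) and -0.51 (SE 0.10, adjusted p = 0.00414). The medians were -1.50 for primary granule and precursor genes, -1.01 for secondary granule genes and -1.13 for genes of mature cells. Eosinophil and basophil genes Ear1 (-3.34), Prg2 (-3.07), Epx (-2.55) and Mcpt8 (-2.13) were lower, although rows of the Ear family are close paralogs. The mast cell tryptase Tpsb2 was higher (1.33 (SE 0.18, adjusted p = 0.000342)) while Cpa3 was not called (-0.26).

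B lineage genes were lower in 28 of 37 cases (median -1.76, or -1.82 without active replicate 1). Cd79a, a signalling chain of the B cell receptor, had 6.47, 4.84 and 5.38 in the active arrays, against 9.11, 8.89 and 8.95 in the control arrays. Rag1, the recombinase of precursor B cells, had 6.16, 5.73 and 6.04 in the active arrays, against 9.36, 8.67 and 9.05 in the control arrays. Both separated the groups (-3.42 (SE 0.34, adjusted p = 4.35e-05) and -3.05 (SE 0.21, adjusted p = 6.9e-06)). The factors Spib (-3.85) and Pax5 (-2.63) and the antibody joining chain Igj (-4.23) were lower, and Sdc1, which stromal cells also carry, was the list's only member called higher (0.68). T and NK genes were lower in 21 of 29 cases (median -0.65, or -0.61 with 17 lower without active replicate 1), for example Il2rb (-2.08), Lat (-1.78), Cd3g (-1.62) and Nkg7 (-1.56). Progenitor genes included decreases in Myb (-2.70) and Kit (-1.41) and an increase in Cd34 (1.39), which endothelial and stromal cells share.

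**Figure D1:**
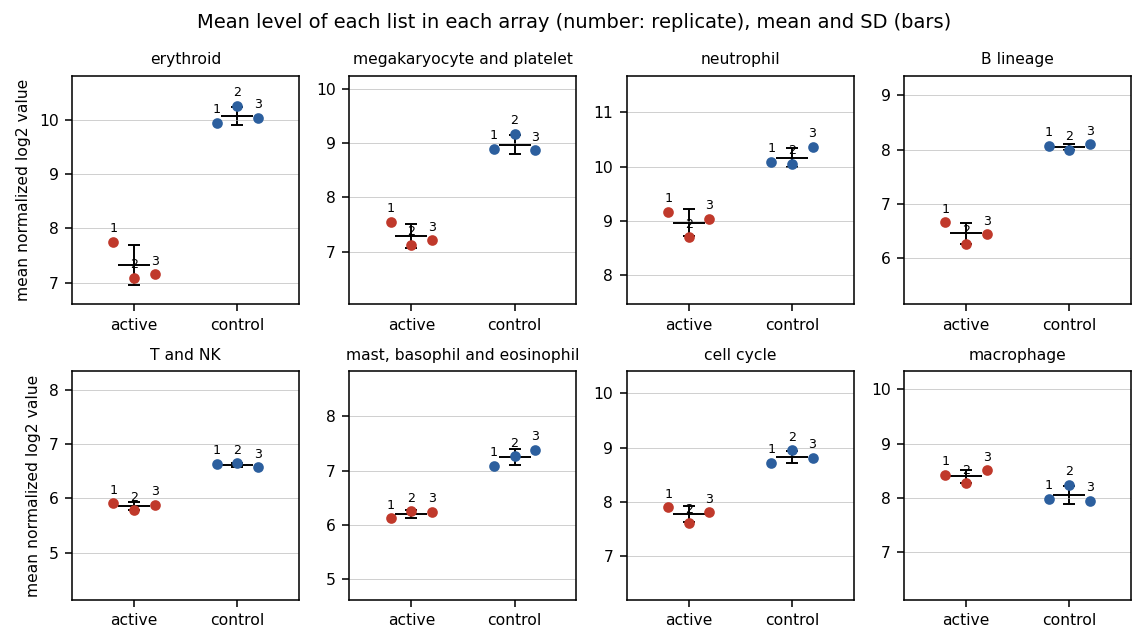
Mean normalized log2 value of 8 gene lists in each active (left) and control (right) array, numbered by replicate, with the mean and SD of 3 arrays. All lists but macrophage are lower in every active array than in every control array. Active replicate 1 is the highest active array in every panel except those of macrophage and of mast, basophil and eosinophil genes.

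Cell cycle genes were lower at the fracture site. Of 57 members 48 were called lower and 3 higher, with a median of -1.15, or -1.23 without active replicate 1. Mki67, a marker of cycling cells, had 9.93, 9.21 and 9.53 in the active arrays, against 11.37, 11.73 and 11.51 in the control arrays. E2f2, an activator of replication genes with high levels in erythroblasts, had 7.17, 6.26 and 6.58 in the active arrays, against 9.13, 9.09 and 9.34 in the control arrays. The groups did not overlap in either gene (-1.98 (SE 0.17, adjusted p = 1.8e-05) and -2.51 (SE 0.19, adjusted p = 1.03e-05)). All 22 mitotic genes and 20 of 22 replication genes were lower. The members that were higher were the inhibitors Cdkn1a (1.89 (SE 0.23, adjusted p = 0.000188)) and Cdkn1c (0.65) and the G1 cyclin Ccnd1 (0.75 (SE 0.13, adjusted p = 0.00171)), while Ccnd3, the D cyclin of blood cells, was lower (-1.45). The clustered histone genes, a family taken whole after its values were seen, gave 34 of 54 lower and 1 higher (median -0.87), although probes of their near-identical copies cannot be told apart. The letters TTTGAA, found in promoters of mitotic genes, or TTCAAA on the other strand, were in 17 of 45 windows of the cell cycle list (37.8%), beside 5466 of 27025 genes (20.2%). The mean level of the erythroid list moved with that of the cell cycle list between the groups, and its part in the decrease was not tested.

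Vessel genes outside the sinusoid group were more often higher than lower. Of 21 pan-endothelial genes 10 were higher and 1 lower, Vwf (-0.83), which platelets also carry. The increases included Emcn (1.18), Cdh5 (1.16), Sox17 (0.65), Flt1 (0.62) and Pecam1 (0.36). Of 15 sprouting genes 7 were higher and 1 lower, the tip cell gene Esm1 (-1.33). Apln, a ligand of sprouting tip cells, and its receptor Aplnr were higher by 1.55 (SE 0.14, adjusted p = 2.18e-05) and 1.5 (SE 0.23, adjusted p = 0.00082). Vegfa and Kdr were not called (Vegfa (0.00) and Kdr (0.14)). Of 8 sinusoid genes 2 were higher and 3 lower. The sinusoidal receptor Stab2 had 6.73, 5.81 and 6.40 in the active arrays, against 8.62, 8.62 and 8.11 in the control arrays. Its active arrays were all lower, by a difference of -2.14 (SE 0.27, adjusted p = 0.00023), and Dnase1l3 and Sele were lower too (Dnase1l3 (-1.47) and Sele (-0.84)), whereas Stab1, which macrophages share, was higher (1.51).

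Marrow stroma followed a similar division. Lepr, Cxcl12, Vcam1 and Il7, products of the perivascular cells that support blood formation, were lower (Lepr (-1.11), Cxcl12 (-0.87), Vcam1 (-1.41) and Il7 (-0.47)). Progenitor and pericyte genes Nes (1.67), Mcam (1.6), Rgs5 (1.30), Ly6a (1.25) and Thy1 (1.0) were higher. Adipocyte genes were mostly not called, with 4 of 20 lower, among them Scd1 (-1.40), Adipoq (-0.76) and Pparg (-0.57). The count was 2 without active replicate 2 or 3 or control replicate 2 and 7 without control replicate 3. In the nerve list the growth cone gene Gap43 was higher (1.14), while the peptide genes Calca and Tac1 were not called (Calca (0.06) and Tac1 (0.10)).

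Hypoxia targets were higher in 8 of 14 cases and lower in 3. The increases included Adm (1.87), Car12 (1.14) and Egln3 (1.11) and the decreases were Bnip3l (-0.64), Ero1l (-0.50) and Car9 (-0.49), while Hif1a itself was higher by 1.31. Glycolytic isoforms split, the muscle enzymes Pfkm and Aldoa being higher (Pfkm (0.91) and Aldoa (0.60)) and Hk1, Hk3 and Slc2a3 of blood cells lower (Hk1 (-1.04), Hk3 (-1.12) and Slc2a3 (-1.59)). Iron handling was not called for Hmox1 (0.59), while Slc40a1, the iron exporter, and Blvrb were lower (Slc40a1 (-2.15) and Blvrb (-2.06)) and the transporter Slc39a14 higher (1.44). Immediate early factors were called higher in 8 of 20 cases, Jun first (1.46 (SE 0.27, adjusted p = 0.00226)), and in 5 without active replicate 3. Since the drug was timed, the clock genes are given as well. The methods give the same hour of the day for taking the samples of all groups. Arntl, Per1, Per2 and Cry1 of the core loop were not called (Arntl (-0.07), Per1 (0.08), Per2 (-0.08) and Cry1 (-0.26)), and 7 of 21 members were higher, among them Bhlhe40 (1.02), Npas2 (0.76), Rora (0.63), Nr1d2 (0.63), Nfil3 (0.61) and Bhlhe41 (0.44).

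Noncoding RNAs of 1 imprinted interval were among the genes with the largest increases. The interval between Dlk1 and Dio3 on chromosome 12 carries maternally expressed noncoding RNAs, among them Meg3, a row of C/D box snoRNA genes and many microRNA genes, and paternally expressed coding genes. Of 103 RefSeq genes between Dlk1 and Dio3, 59 had a row, and 15 of them (25.4%) were called higher and none lower, beside 11.8% of all rows. The interval was chosen after its values were seen. Meg3 had 7.05, 7.20 and 6.98 in the active arrays, against 6.15, 5.79 and 5.43 in the control arrays. Its groups were separate, with a difference of 1.28 (SE 0.16, adjusted p = 0.000237). The snoRNA gene AF357425 had 8.99, 9.47 and 8.76 in the active arrays, against 5.13, 5.15 and 5.70 in the control arrays. It was higher by 3.75 (SE 0.22, adjusted p = 3.01e-06), and 5 of 7 snoRNA genes of the interval were called, including AF357355 (2.86), AF357426 (2.12) and DQ267102 (1.47). The coding genes Dlk1, Rtl1 and Dio3 were not called (Dlk1 (-0.02), Rtl1 (0.34) and Dio3 (-0.05)).

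Of 45 microRNA genes of the interval with a row, 8 were called higher. In the whole table, 19 of 523 microRNA genes were called higher and 11 lower, and the interval held 8 of the 19. Both shares of the 523 were below those over all rows (11.8% higher and 12.1% lower). The array measures RNA from the microRNA gene and does not separate precursor from mature forms. Mir493 had 8.48, 7.47 and 8.13 in the active arrays, against 4.88, 5.27 and 5.09 in the control arrays, with no overlap and a difference of 2.95 (SE 0.23, adjusted p = 1.07e-05). Mir453, Mir544 and Mir485 followed at 2.46, 2.17 and 1.4, and Mir3070b, Mir341, Mir329 and Mir882 at 1.25, 0.97, 0.92 and 0.75. The mature sequences of the 5 genes that lead or are best annotated are shown so that their seeds can be compared, from RefSeq (GRCm38.p6, + strand), with bases 2 to 8 in capitals.
mmu-miR-493-5p: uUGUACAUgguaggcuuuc
mmu-miR-493-3p: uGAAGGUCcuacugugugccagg
mmu-miR-453: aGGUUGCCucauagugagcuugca
mmu-miR-544-5p: uCUUGUUAaaaagcagagucu
mmu-miR-544-3p: aUUCUGCAuuuuuagcaagcuc
mmu-miR-485-3p: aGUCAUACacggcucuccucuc
mmu-miR-329-5p: aGAGGUUUucugggucucuguu
mmu-miR-329-3p: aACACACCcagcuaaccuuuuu
These mature forms lie at chr12:109580243-109580261, chr12:109580283-109580305, chr12:109735669-109735692, chr12:109729335-109729355, chr12:109729371-109729392, chr12:109734946-109734967, chr12:109713503-109713524 and chr12:109713541-109713562 in the order shown. The seeds of the sequences shown all differ. The other called microRNA genes with the largest differences were Mir694 (1.59) and Mir5124 (1.07) upward and Mir1962 (-1.62) and Mir505 (-1.37) downward. Mirlet7a-1 and Mirlet7a-2, which encode the same mature let-7a, were higher (0.73 and 0.64) and Mir26a-1 lower (-0.54).

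**Figure D2:**
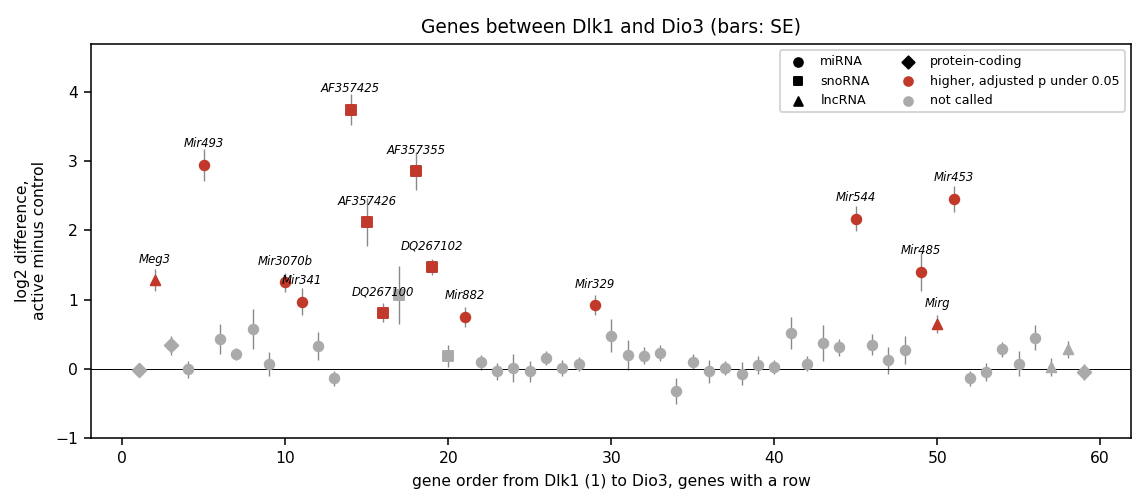
Log2 difference, active minus control, of the 59 genes with a row between Dlk1 and Dio3, in their order on the chromosome, with the SE of the fit. Red symbols were called higher (15 genes) and grey symbols were not called, and the 3 coding genes lie between -0.05 and 0.34.

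Imprinted genes elsewhere were also among the largest increases. H19, a maternally expressed noncoding RNA of fetal muscle, had 10.23, 9.17 and 10.03 in the active arrays, against 6.98, 6.73 and 6.56 in the control arrays. Mest, a paternally expressed gene of mesoderm, had 10.01, 9.84 and 9.55 in the active arrays, against 6.24, 5.90 and 6.12 in the control arrays. Neither overlapped between groups, with differences of 3.06 (SE 0.24, adjusted p = 1.07e-05) and 3.71 (SE 0.15, adjusted p = 6.84e-07), and Grb10, chosen after its value was seen, was higher by 2.24. Igf2, the neighbour of H19, was higher by 0.53 (SE 0.14, adjusted p = 0.0203), a call that was lost without active replicate 1 (0.37) or without control replicate 2 (0.46).

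Further genes among the 30 largest increases were Capn6 (3.15), Dclk1 (3.04), Tubb6 (2.93), Lrrc17 (2.88) and C1qtnf3 (2.87). Capn6 is a calpain without protease activity, Tubb6 a tubulin, and C1qtnf3 a secreted protein of cartilage and fat. Among the 30 largest decreases were Serpina1d (-4.74), Apol11b (-4.08) and Apol11a (-3.95), members of families with close paralogs whose rows cannot be assigned with certainty. Ctse (-3.95), a cathepsin of red cell precursors and other cells, and Hist3h2ba (-3.73), Slfn14-ps (-3.70), Nxpe2 (-3.67), Btnl10 (-3.58) and Mfsd2b (-3.34) were also among them. Predicted genes and antigen receptor segments, which were left unnamed, made up 122 further genes that were higher and 178 that were lower with separate groups.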

How the data were processed

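Gene expression was measured on Affymetrix Mouse Gene 2.0 ST arrays, 1 array per sample, with 3 arrays in each of 3 groups. The deposited log2 values had been normalized by the authors with GeneSpring GX 10. The methods also limit the analysis to features flagged as present, but whether this was applied to the deposited values was not stated. The lowest value of an array lay between 2.31 and 2.44, and rows of low signal were kept in the main fit. For the algorithm, the base of the logarithm (taken as 2 from the range of the values) and the build, nothing was stated in the labels, methods or file headers. A gene-named table of 24367 rows was used, and a table of 41345 probe sets served as an alternative. Titles of the columns gave the groups. Replicate numbers of the active and resting columns differ between the tables, but the groups match. All columns of both tables were matched to a sample.

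A limma model (version 3.58.1, R 4.3.3) with 1 mean per group was fitted to the 9 arrays, and active minus control was tested with empirical Bayes moderation (6 residual degrees of freedom) and Benjamini-Hochberg adjustment over all rows, in a design that no exact permutation test could take below p = 0.10. The procedure was tested on simulated data. The number of arrays limits the precision. Neither the files nor the labels used here give a scan date or slide, so batches were not examined. Alternatives were the fit of the 6 arrays, a filter on low rows, other scalings, array weights, an intensity trend, a replicate block, the methods' t-test, averaged rows, a fold condition, the table of probe sets and leaving out each array. The text names the 30 largest called increases and decreases without overlap (predicted genes and receptor segments left out), leading members of each role of the lists and called microRNA genes. Some genes that this rule covers are not reported here. The comparison, the lists and their members were chosen with earlier results of these data known.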

Additional observations from a re-analysis of the deposited data

How the results depend on the processing

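The number of called rows (5826, of which 2873 were higher and 2953 lower) stayed within 1.5 times of these counts in all alternatives except 2. The methods' t-test on the 6 arrays with Benjamini-Hochberg adjustment called 2241 rows (1011 higher and 1230 lower), and at least a 2-fold difference as a further condition left 1718 (756 and 962). Leaving out 1 array in turn gave 4439 to 5410 called rows. With the replicate number as a block 5502 rows were called (2712 higher and 2790 lower), although the labels do not say that the numbers pair the samples and the deviations of equally numbered active and control arrays correlated at -0.03, 0.05 and 0.17. The probe set table gave 5979 of 41345 probe sets. No named gene that was called changed its direction. Of 379 named called genes, 38 lost the call without at least 1 array, 136 under the t-test and 8 with the block. The 2-fold condition removed the call of 94, the probe set table of 22 and the fit of the 6 arrays of 12. Acta1 passed after quantile normalization (0.23 became 0.43), and Ckm after the low rows were dropped.

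Of 768 medians of gene lists under the alternatives, 729 stayed within 1 SD of the spread between arrays. Of 1632 counts of called members in the lists, 175 moved by more than 1.5 times, 111 of them with the t-test or the 2-fold condition, 45 without 1 array and 19 in other alternatives. Dropping the lowest 40% of rows, which also removes members, moved the median to -2.01 for B lineage, -0.96 for T and NK, -2.13 for mast cells, basophils and eosinophils, 0.40 for FGF, 0.78 for IGF, 0.38 for Wnt, 0.73 for integrins and laminins, 0.97 for limb and mesenchyme factors, 0.84 for matrix proteases and 0.31 for muscle atrophy. The chemokine median, -0.07 in the full fit, became 0.05. Averaging all rows of a symbol gave -1.50 for B lineage and 0.36 for integrins and laminins, array weights gave 0.49 for integrins and laminins, and quantile normalization and median centring gave 0.49 and 0.48 for limb factors. Without 1 array the medians ran from -1.82 to -1.56 for B lineage, from -0.78 to -0.61 for T and NK, from -1.30 to -1.04 for neutrophil, from 0.60 to 0.93 for collagen chains, from 0.31 to 0.43 for BMP and TGF-beta, from 0.37 to 0.66 for IGF, from 0.50 to 0.70 for actin and migration, from 0.42 to 0.58 for integrins and laminins, from 0.50 to 0.54 for limb factors, from 0.12 to 0.21 for nerve and Schwann, from 0.04 to 0.29 for hypoxia and glycolysis, from -0.28 to -0.01 for osteoclast, from -0.27 to -0.10 for osteocyte and from -0.16 to -0.06 for cytokines. The chemokine median ran from -0.12 to 0.03 (0.03 without active replicate 1), and the median for heme and iron, -0.01 in the full fit, from -0.03 to 0.07, with 0.06 and 0.07 without control replicates 1 and 2. The cause of these changes was not tested.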
